A study of Mus musculus with 30 samples.

Results

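RNA-sequencing of C2C12 myotubes was examined for 43 genes that copy DNA, supply its building blocks, pack and repair it, or switch such genes on. The 43 genes were taken by name from a list of S-phase, replication and E2F target genes. All 43 were found among the 55487 genes of the count table, each under a single Ensembl identifier, and all 43 were among the 15907 genes with enough counts to be tested. C2C12 is an established wild-type mouse myoblast line, which fuses into multinucleated myotubes when serum is lowered. The cells were differentiated for 4 days in low-glucose medium with 2% horse serum and then kept for 4 more days (8 days in all) in 1 of 5 conditions. Controls stayed in 2% horse serum (2% HS). The other 4 groups were deprived of serum (SD, a model of myotube atrophy), alone or with 100 nM metformin (MET), 500 nM leucine (LEU) or both at these doses (MET+LEU). Each group had 6 libraries, and the questions were which of these genes moved with SD, and which moved with MET, LEU or their combination during SD. Neither the labels nor the methods say whether the 6 libraries of a group came from separate cultures, so the p-values measure the spread between these libraries only, which may be technical.

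Replication begins before S phase, when the origin recognition complex, Cdc6 and Cdt1 load the ring-shaped MCM helicase onto DNA. Cdc45, the GINS complex and Mcm10 then switch the helicase on, polymerases copy the strands behind it, and enzymes of nucleotide synthesis feed the polymerases. Most of these genes are targets of E2F transcription factors, which the retinoblastoma protein holds back in cells that have left the cell cycle. Differentiated myotubes are such cells, and a C2C12 culture also holds mononucleated cells that did not fuse.

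Libraries held 12784960 to 19604103 counts on genes. Levels are given as CPM, which are counts divided by the TMM-scaled size of the library in mega-counts, so they are relative to the other RNA of the same library, and 3 values for a group are its lowest, median and highest library. Changes are given as log2 fold changes of the edgeR fit with their standard error (SE). MET+LEU replicate 6 stood apart, with 5.85% of its counts on nuclear ribosomal RNA genes and 7.64% on mitochondrial ribosomal RNA, against at most 1.96% and 0.760% in the other 29 libraries. It was kept, and the counts of changed genes without it are given below. Mitochondrial ribosomal RNA also moved with the groups, at 0.219% to 0.367% of the counts in the 2% HS and SD libraries, 0.244% to 0.705% in MET, 0.501% to 0.710% in LEU and 0.649% to 0.760% in the other 5 MET+LEU libraries. By this share no library of LEU or MET+LEU overlapped SD, and its part in the comparisons with SD was not tested. Gene positions are those of GENCODE M21 on GRCm38, the build named in the submitters' processing notes. In such bulk samples, fewer cells that express a gene and less of its RNA per cell cannot be told apart.

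Scaled to exon length, the 43 genes spanned a wide range in 2% HS. Rrm2, the small subunit of ribonucleotide reductase, had the highest mean level per kilobase of exon in 2% HS (38.2 CPM per kb), followed by the transcription factor E2f2 (19.9), the origin subunit Orc6 (16.8), the sliding clamp Pcna (14.1) and the GINS subunit Gins4 (10.7). At the low end were the exonuclease Exo1 (0.227 CPM per kb), Mcm10 (0.304), Gins2 (0.356), Cdc6 (0.391) and Orc1 (0.400). Subunits that work in 1 complex were not at 1 level: within the MCM ring the mean in 2% HS ran from 2.31 CPM per kb for Mcm5 and 2.64 for Mcm2 to 5.20 for Mcm6, 5.38 for Mcm4 and 7.17 for Mcm7. The GINS subunits ran from 0.356 CPM per kb for Gins2 and 0.845 for Gins1 to 2.66 for Gins3 and 10.7 for Gins4. Lengths are those of all annotated exons of a gene in GENCODE M21, so a gene with long rarely used exons reads low on this scale.

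The promoters of these genes were compared by letter for the E2F binding motif, because it is the feature that most of the genes are known to share. RefSeq promoter windows (GRCm38.p6, 250 bases before to 50 after the gene start) were found for 36 of the 43 genes, and not for Tipin, Mcm4, Exo1, Gins4, Pole, Gins2 and Gins1. The letters TTTCCCGC, TTTCGCGC, TTTGCCGC or TTTGGCGC stood on either strand for 16 of the 36 genes (44.4%), against 704 of all 27025 genes with a window (2.6%) and 3.32% of the 16513 coding genes. Some genes had more than 1 window, and a match in any of them counted. The 43 genes came from a list that includes E2F targets by name, so this difference is not an independent result. Among genes that changed in at least 1 of the comparisons with SD, 10 of 21 held the letters, and among the others 6 of 15. For comparison, CCAAT stood for 63.9% of the 36 genes and 41.1% of all genes, TATAA for 11.1% and 28%, and the cell cycle homology letters TTTGAA or TTCGAA for 19.4% and 21.7%. Shown here are 60 bases of 4 promoters of genes that changed (Cdc6, Mcm5, Mcm6 and Uhrf1) and of 2 that did not (Pola1 and Brca2), written 5′ to 3′ on the strand of the gene with the E2F letters in capitals. They are from chr11:98907987-98908046 (plus strand), chr8:75109334-75109393 (plus), chr1:128359719-128359778 (minus), chr17:56304102-56304161 (plus), chrX:93632260-93632319 (minus) and chr5:150522427-150522486 (plus) of GRCm38.p6. The stretches of Cdc6 and Uhrf1 lie in introns of these genes in GENCODE M21, and the other 4 lie between annotated genes.
Cdc6: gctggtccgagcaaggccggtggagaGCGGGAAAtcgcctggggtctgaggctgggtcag
Mcm5: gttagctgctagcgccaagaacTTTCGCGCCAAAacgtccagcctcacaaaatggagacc
Mcm6: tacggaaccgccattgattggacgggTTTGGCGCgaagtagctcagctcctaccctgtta
Uhrf1: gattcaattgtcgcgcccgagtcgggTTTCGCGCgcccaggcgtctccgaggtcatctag
Pola1: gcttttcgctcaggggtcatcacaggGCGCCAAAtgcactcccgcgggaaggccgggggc
Brca2: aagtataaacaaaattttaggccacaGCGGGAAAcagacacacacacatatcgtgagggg
In the Mcm5 stretch, TTTCGCGC and the reverse complement of TTTGGCGC overlap by 4 letters, so the capitals there hold both. Windows with and without the letters were found among changed and unchanged genes alike, and a match of letters says nothing about whether a factor was bound in these cells.

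Many of these genes were higher in SD than in 2% HS, and many were lower in MET+LEU than in SD. In SD vs. 2% HS, 19 of the 43 genes were upregulated and 1, Orc6, was downregulated by edgeR's quasi-likelihood test at an adjusted p under 0.05, where 13.9% of all 15907 genes tested were upregulated and 13.9% downregulated (27.8% either way). The median log2 fold change of the 43 genes was 0.23 in SD vs. 2% HS, against 0.00 over all genes tested, and 37 of the 43 were above 0. Between MET and SD, 0 of the 43 genes changed in edgeR, in DESeq2 and in limma-voom, where edgeR called 0.157% of all genes (0.0754% higher, 0.0817% lower). Its median was -0.03, and 7 genes were lower and 0 higher at an unadjusted p under 0.05, which 1597 of all 15907 genes passed in either direction. In LEU vs. SD, 3 genes were lower (Cdc6, Mcm3 and Rrm2) and 0 higher, against 0.321% and 0.233% of all genes (0.553% either way), with a median of -0.15 and 38 of the 43 genes below 0. In MET+LEU vs. SD, 20 genes were lower and 0 higher, against 7.8% and 10.6% of all genes (18.4% either way), with a median of -0.23 and 37 of the 43 genes below 0. At an unadjusted p under 0.05, 17 genes were lower and 0 higher in LEU vs. SD, where 1588 of all 15907 genes passed either way. In MET+LEU vs. SD, 24 were lower and 1 higher at that threshold, where 4961 of all genes passed either way. MET, LEU and MET+LEU were all compared with the same 6 SD libraries, which also stand in SD vs. 2% HS, so a shift of the SD libraries moves all 4 comparisons.

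Without MET+LEU replicate 6, edgeR called 22 genes in SD vs. 2% HS (21 upregulated, 1 downregulated), 0 in MET vs. SD, 7 in LEU vs. SD (all lower) and 20 in MET+LEU vs. SD (all lower). In the same fit the share of all genes called was 30.3%, 0.996%, 1.67% and 13.5% in that order, so the higher count in LEU vs. SD came with a higher share over all genes. The count for LEU vs. SD was the least settled, since it fell to 1 without SD replicate 6 or without LEU replicate 1, 2, 3 or 4 (0.268% to 0.43% of all genes in these fits). It was 6 by DESeq2 (1.07% of the 14382 genes with an adjusted p there), 6 by limma-voom (1.19% of all genes) and 5 with the replicate number as a block (0.641%). Libraries of the groups were fully apart for few genes. For Cdc6, Mcm6, Pcna and Clspn (4 of the 43), every SD library was above every library of 2% HS, where 6.17% of all genes were so, and for Orc6 every SD library was below (7.42% of all genes). All 6 MET+LEU libraries lay below all 6 SD libraries for 7 genes (Cdt1, Mcm2, Mcm5, Pole, Tk1, Uhrf1 and Brca1), where 1.93% of all genes did so, and above them for 0 (3.41% of all genes). Between MET and SD, 0 of the 43 were fully apart in either direction (0.346% of all genes higher, 0.371% lower).

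**Figure D1:**
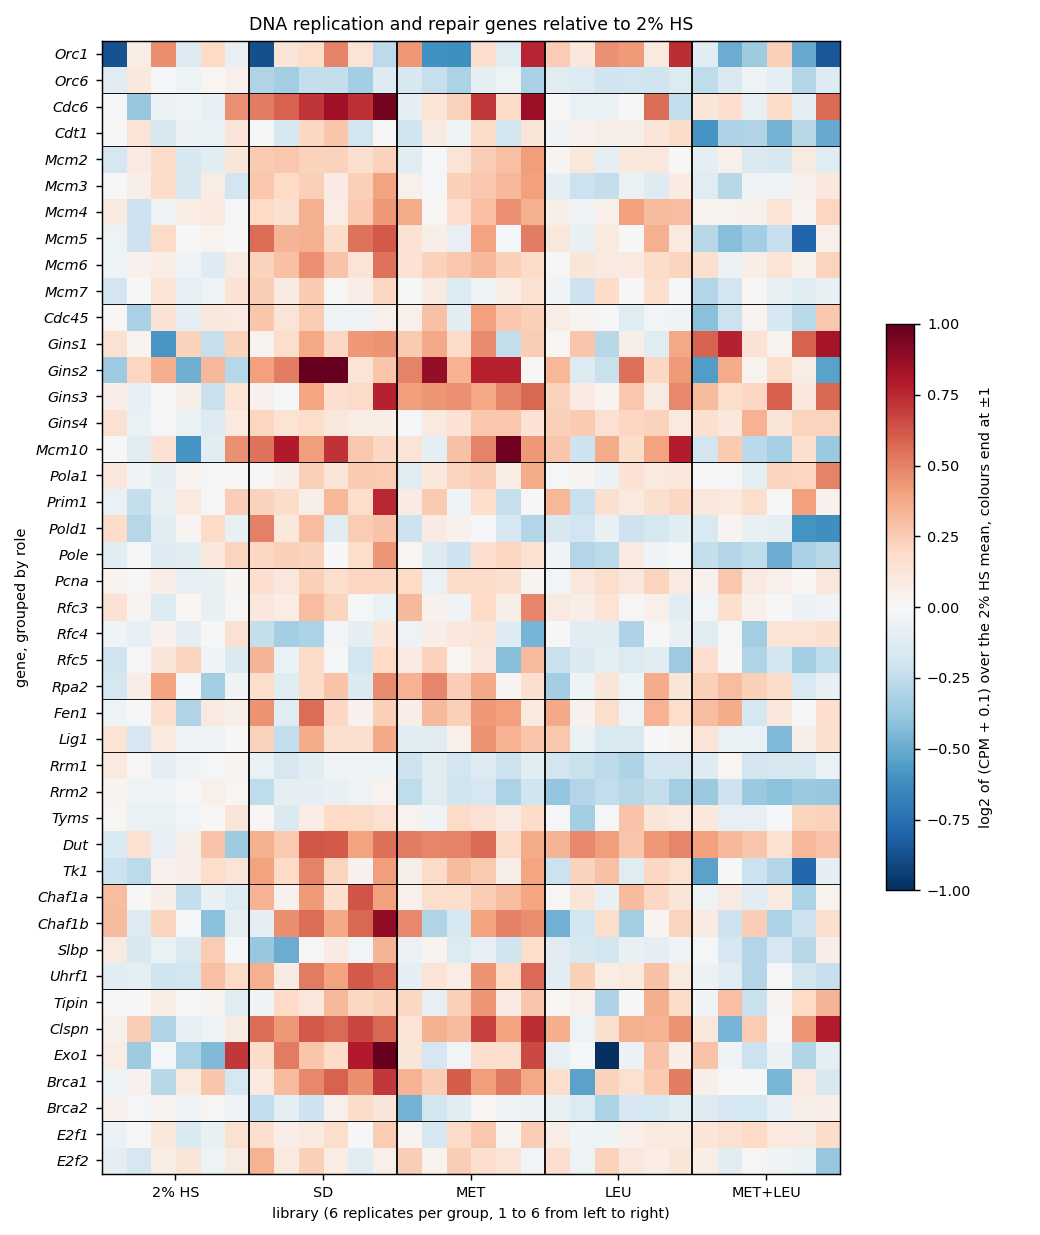
Level of each of the 43 genes (rows, ordered by role) in each of the 30 libraries (columns, by group), as the log2 ratio of its CPM (with 0.1 added) to the mean of 2% HS on a colour scale that ends at 1 in both directions. The 6 SD columns are mostly on the higher side, while the MET+LEU columns are near or below the 2% HS level for Mcm5, Tk1, Pole and Cdt1, and Orc6 runs the other way in SD.

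**Figure D2:**
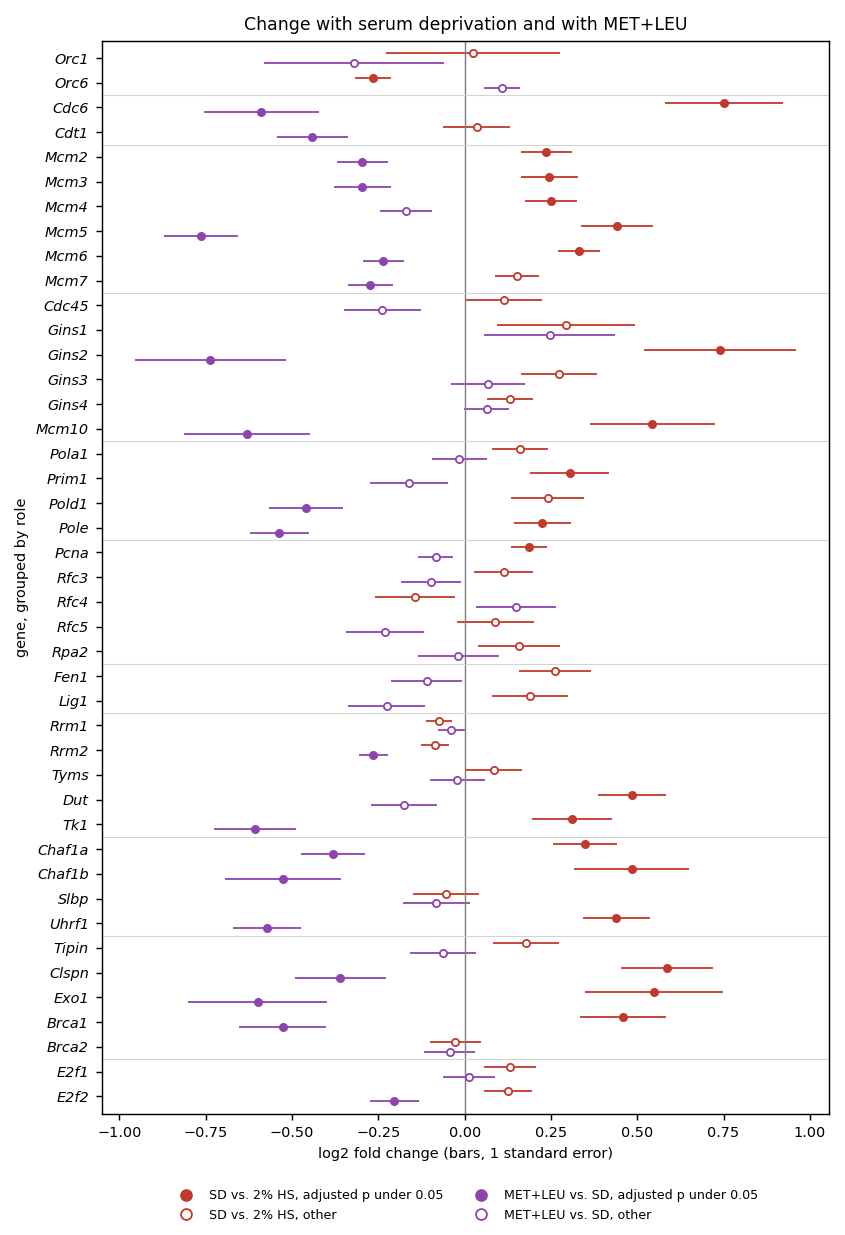
Log2 fold change (horizontal axis) of each of the 43 genes (rows, ordered by role) in 2 comparisons, SD vs. 2% HS and MET+LEU vs. SD, with bars of 1 standard error of the edgeR fit and filled points where the adjusted p was under 0.05. In SD vs. 2% HS 19 filled points lie above 0 and 1 below, and in MET+LEU vs. SD 20 lie below 0 and 0 above, and the 2 comparisons share the SD libraries.

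Among the genes that license origins, Orc6 and Cdc6 moved in opposite directions in SD. Orc6 (ENSMUSG00000031697, chr8:85299632-85308278, plus strand) encodes a subunit of the origin recognition complex. Orc6 was at 38.1, 41.5 and 44.7 CPM in 2% HS and at 32.6, 34.3 and 37.8 CPM in SD, so that the highest SD library lay below the lowest library of 2% HS. Its log2 fold change was -0.26 (SE 0.05, adjusted p = 7.19e-05), which is a level that fell by 16.8%. MET (33.1, 36.1 and 39.9 CPM), LEU (36, 37 and 38.1 CPM) and MET+LEU (33.8, 37.7 and 39.9 CPM) overlapped SD for Orc6, and it stayed lower in MET+LEU vs. 2% HS (-0.16, SE 0.05, adjusted p = 0.0119). Orc1, which encodes the largest subunit, was near the lower end of detection with 9 to 42 counts in a library and passed the test in 0 of the comparisons with SD or 2% HS. Its 5 groups overlapped, at means of 1.39 ± 0.414 CPM in 2% HS, 1.42 ± 0.440 in SD and 1.11 ± 0.325 in MET+LEU (± standard deviation, n = 6).

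Cdc6 (ENSMUSG00000017499, chr11:98907801-98923940, plus strand) encodes the ATPase that loads the MCM ring together with Cdt1. Cdc6 was at 1.55, 1.97 and 2.84 CPM in 2% HS and 2.95, 3.44 and 4.07 CPM in SD, with no overlap between the groups, on only 20 to 60 counts in a library. Its rise of 0.75 on the log2 scale (SE 0.17, adjusted p = 0.000521) was the largest fitted among the 43 genes, next to that of Gins2. With LEU, Cdc6 measured 1.71, 2.00 and 3.06 CPM and with MET+LEU 1.90, 2.27 and 3.08 CPM, where 1 library of each group reached into the range of SD, and MET had a median between, at 1.91, 2.38 and 3.78 CPM. Cdc6 was lower in LEU vs. SD by 0.70 on the log2 scale (SE 0.17, adjusted p = 0.0335), and the drop in MET+LEU vs. SD was 0.59 on the log2 scale (SE 0.17, adjusted p = 0.00962), while MET vs. SD missed the threshold (-0.36, SE 0.16, adjusted p = 0.442). The call in LEU vs. SD was lost in 8 of the 30 fits that left out 1 library, with the highest adjusted p, 0.102, without LEU replicate 6. MET+LEU and 2% HS were not told apart for Cdc6 (0.16, SE 0.18, adjusted p = 0.495).

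Cdt1 (ENSMUSG00000006585, chr8:122568015-122573554, plus strand), the partner of Cdc6 in loading, did not pass in SD vs. 2% HS. Cdt1 was at 6.20, 6.83 and 7.61 CPM in 2% HS, 6.08, 6.88 and 8.43 CPM in SD, 6.04, 7.06 and 7.90 CPM in MET and 6.76, 7.23 and 7.90 CPM in LEU, which all overlapped. In MET+LEU, Cdt1 was at 4.59, 5.29 and 5.71 CPM, below every library of the other 4 groups. Over all genes, 0.861% had MET+LEU below all LEU libraries, and the share below all 24 other libraries was not counted. Cdt1 was the only member for which MET+LEU stood below all 24 other libraries. The log2 fold change was -0.44 (SE 0.10, adjusted p = 0.00158) in MET+LEU vs. SD, -0.41 (SE 0.10, adjusted p = 0.00114) against 2% HS, -0.49 (SE 0.10, adjusted p = 0.00298) against LEU and -0.41 (SE 0.10, adjusted p = 0.00761) against MET, and 0.03 (SE 0.10, adjusted p = 0.836) in SD vs. 2% HS.

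The 6 genes of the MCM ring, the helicase that unwinds DNA ahead of the fork, moved together in sign. All 6 had a log2 fold change above 0 in SD vs. 2% HS, of which 5 passed the test (all but Mcm7), and all 6 were below 0 in MET+LEU vs. SD, of which 5 passed (all but Mcm4). Over all genes, 13.9% were upregulated in the first comparison and 7.8% were lower in the second. The same signs were shared by 37 of the 43 genes in each comparison, so they were not particular to the ring. Mcm5 (ENSMUSG00000005410, chr8:75109569-75128439, plus strand) changed most. Mcm5 was at 7.97, 9.23 and 10.5 CPM in 2% HS, 10.5, 12.7 and 14.1 CPM in SD and 5.27, 7.42 and 9.56 CPM in MET+LEU, and all 6 MET+LEU libraries lay below all 6 SD libraries. Its log2 fold change was 0.44 (SE 0.10, adjusted p = 0.000981) in SD vs. 2% HS and -0.76 (SE 0.11, adjusted p = 2.04e-06) in MET+LEU vs. SD, where the level fell by 41.1%. MET (8.72, 9.92 and 13.2 CPM) and LEU (8.73, 9.86 and 11.8 CPM) had medians between, with -0.25 (SE 0.10, adjusted p = 0.385) in MET vs. SD and -0.34 (SE 0.10, adjusted p = 0.144) in LEU vs. SD, which did not pass. Mcm5 was also lower in MET+LEU vs. 2% HS (-0.32, SE 0.11, adjusted p = 0.0163), vs. LEU (-0.43, SE 0.11, adjusted p = 0.0155) and vs. MET (-0.51, SE 0.11, adjusted p = 0.00242).

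Mcm2 (ENSMUSG00000002870, chr6:88883474-88898780, minus strand) was at 16.4, 18.3 and 20.9 CPM in 2% HS and 20.5, 21.6 and 22.2 CPM in SD, where the 6 libraries were close together. Mcm2 was at 17, 21 and 24.6 CPM in MET, 17.2, 19.3 and 19.9 CPM in LEU and 16.4, 17 and 19.6 CPM in MET+LEU, so that both LEU and MET+LEU lay below every SD library. Mcm2 rose in SD vs. 2% HS (0.24, SE 0.07, adjusted p = 0.0121) and fell in MET+LEU vs. SD (-0.30, SE 0.07, adjusted p = 0.0033), and LEU vs. SD did not pass (-0.19, SE 0.07, adjusted p = 0.32). Besides Mcm2, Rrm1 was the other gene with all 6 LEU libraries below all 6 SD libraries, where 0.522% of all genes did so, and for 0 genes did all LEU libraries lie above (0.786% of all genes). Mcm3 (ENSMUSG00000041859, chr1:20802968-20820312, minus strand) was at 11.1, 13 and 14.5 CPM in 2% HS, 13.5, 15.1 and 16.9 in SD, 12.6, 15.2 and 17 in MET, 10.8, 11.8 and 13.5 in LEU and 10.5, 12.4 and 13.8 in MET+LEU. LEU and MET+LEU were thus near the level of 2% HS, with ranges that met the lower end of SD. Mcm3 gave 0.25 (SE 0.08, adjusted p = 0.0196) in SD vs. 2% HS, -0.35 (SE 0.08, adjusted p = 0.0298) in LEU vs. SD and -0.30 (SE 0.08, adjusted p = 0.00796) in MET+LEU vs. SD. The LEU call was lost in 9 of the 30 fits that left out 1 library (adjusted p = 0.102 without SD replicate 6), and the SD call in 3 (0.0673 without 2% HS replicate 6).

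Mcm6 (ENSMUSG00000026355, chr1:128331590-128359664, minus strand) was at 22.2, 24.3 and 25.8 CPM in 2% HS and 26.5, 29.7 and 35.5 CPM in SD, with no overlap, and the rise was 0.33 (SE 0.06, adjusted p = 2.07e-05). Mcm6 was at 26.9, 28.6 and 30.4 CPM in MET, 24.4, 26.2 and 28.3 in LEU and 23.3, 26 and 28.3 in MET+LEU, and MET+LEU vs. SD gave -0.24 (SE 0.06, adjusted p = 0.00389). Mcm4 (ENSMUSG00000022673, chr16:15623897-15637400, minus strand) rose in SD vs. 2% HS, from 16.7, 19.7 and 20.6 to 20.4, 22.7 and 26.1 CPM (0.25, SE 0.08, adjusted p = 0.00976). It was still at 19.5, 24.3 and 26.5 CPM in MET, 18.8, 22.1 and 25.8 in LEU and 19.8, 19.8 and 22.4 in MET+LEU, and MET+LEU vs. SD did not pass (-0.17, SE 0.08, adjusted p = 0.108). Mcm7 (ENSMUSG00000029730, chr5:138164583-138172422, minus strand) was at 27.8, 31.3 and 35.1 CPM in 2% HS, 31.9, 35.1 and 38.1 in SD, 28.9, 32.5 and 35.3 in MET, 27.5, 31.7 and 36.1 in LEU and 25.8, 29.6 and 32 in MET+LEU, where neighbouring groups overlapped. For Mcm7 the fall in MET+LEU vs. SD passed (-0.27, SE 0.06, adjusted p = 0.00198) and the rise in SD did not (0.15, SE 0.06, adjusted p = 0.0734). The annotation places Mir25 and Mir93 within exons of Mcm7 on the same strand, and some of its exonic bases overlap Ap4m1 on the opposite strand.

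**Figure D3:**
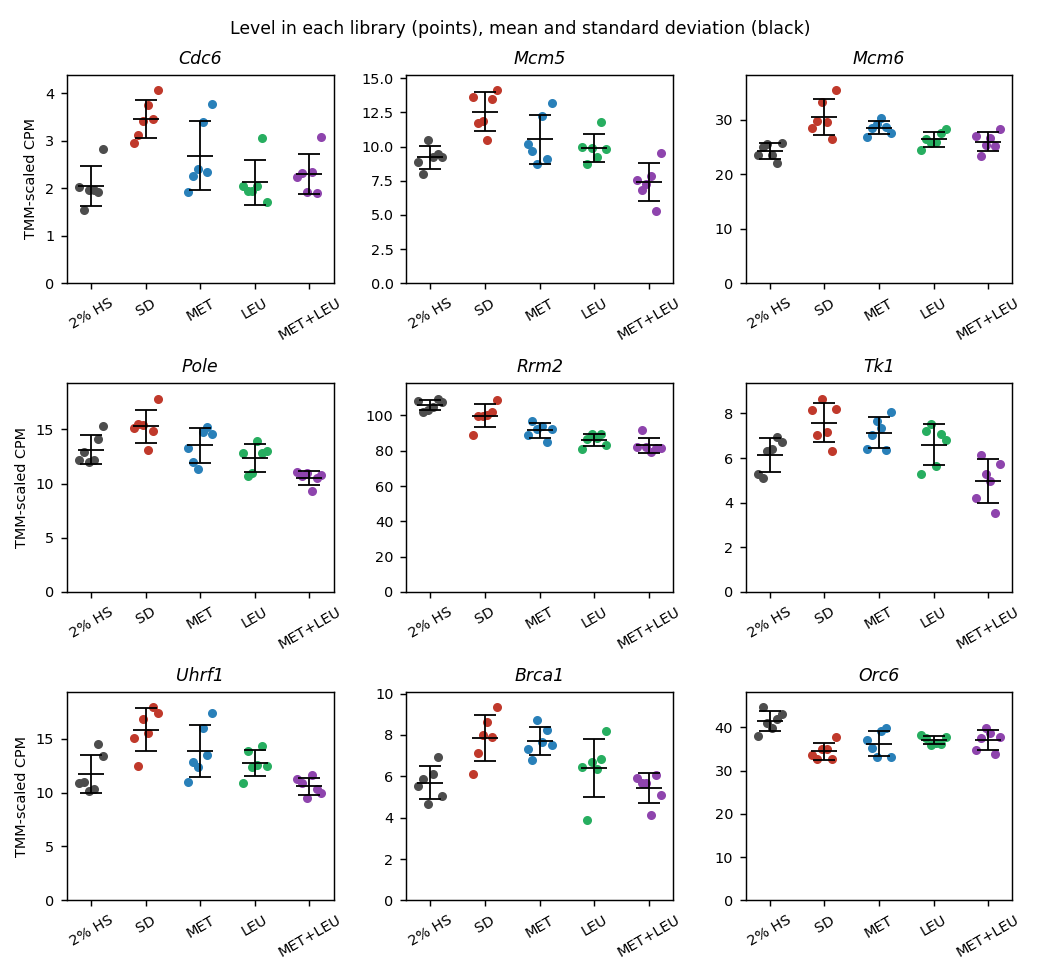
CPM of 9 of the genes in each library (points) by group, with the mean of the 6 libraries (line) and its standard deviation (bar), on axes that start at 0. The mean is highest in SD for Cdc6, Mcm5 and Uhrf1 and lowest in MET+LEU for Mcm5, Tk1 and Pole, and Orc6 is lower in SD than in 2% HS.

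Of the 6 genes that switch the loaded helicase on, 2 changed. Both were called higher for SD against its serum controls, a call made for 13.9% of all genes (27.8% either way). Both were called lower for the combination against SD alone, a call made for 7.8% of all genes (18.4% either way). Whether 2 of 6 departs from these shares was not tested. Gins2 (ENSMUSG00000031821, chr8:120578633-120589304, minus strand), a GINS subunit, was at 1.01, 1.44 and 1.90 CPM in 2% HS and 1.62, 2.05 and 3.73 CPM in SD, and at 1.47, 2.32 and 2.76 in MET, 1.24, 1.78 and 2.18 in LEU and 0.956, 1.52 and 1.92 in MET+LEU. The 5 groups overlapped for Gins2, which had only 12 to 59 counts in a library. Gins2 rose in SD vs. 2% HS by 0.74 on the log2 scale (SE 0.22, adjusted p = 0.00848) and was lower in MET+LEU vs. SD by 0.74 on the log2 scale (SE 0.22, adjusted p = 0.014), but without SD replicate 3, its highest library, neither passed (adjusted p = 0.0557 and 0.0703). Of its 4097 exonic bases 2758 overlap Gse1 on the opposite strand. Mcm10 (ENSMUSG00000026669, chr2:4989714-5012791, minus strand), which binds the helicase and helps it start, was at 1.52, 2.26 and 3.25 CPM in 2% HS, 2.71, 3.30 and 4.12 in SD, 2.20, 3.04 and 4.69 in MET, 2.01, 2.95 and 4.09 in LEU and 1.78, 1.98 and 2.82 in MET+LEU. Its ranges overlapped in all comparisons, and it gave 0.54 (SE 0.18, adjusted p = 0.0196) in SD vs. 2% HS and -0.63 (SE 0.18, adjusted p = 0.0112) in MET+LEU vs. SD. The rise of Mcm10 in SD was lost in 3 of the 30 fits without 1 library, with the highest adjusted p, 0.0845, without 2% HS replicate 4. Cdc45, Gins1, Gins3 and Gins4 passed in 0 of the comparisons with SD, and 3 of the 4 GINS subunits were above 0 in MET+LEU vs. SD, unlike Gins2.

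Among the polymerases, Pole fell most with MET+LEU. Pole (ENSMUSG00000007080, chr5:110286306-110337474, plus strand) encodes the catalytic subunit of the leading-strand polymerase epsilon. Pole was at 12, 12.6 and 15.4 CPM in 2% HS and 13.1, 15.3 and 17.8 CPM in SD, and at 11.3, 13.9 and 15.2 in MET, 10.7, 12.8 and 13.9 in LEU and 9.29, 10.7 and 11.1 in MET+LEU. All MET+LEU libraries lay below all libraries of SD, of 2% HS and of MET. The log2 fold change was -0.54 (SE 0.09, adjusted p = 1.51e-05) in MET+LEU vs. SD, -0.31 (SE 0.09, adjusted p = 0.00305) vs. 2% HS and -0.36 (SE 0.09, adjusted p = 0.00582) vs. MET. The rise of Pole in SD vs. 2% HS was smaller (0.23, SE 0.08, adjusted p = 0.0377) and was lost in 8 of the 30 fits without 1 library (adjusted p = 0.132 without SD replicate 6). Pold1 (ENSMUSG00000038644, chr7:44532746-44548849, minus strand), the catalytic subunit of polymerase delta, was at 6.73, 8.11 and 9.47 CPM in 2% HS, 7.62, 9.96 and 11.7 in SD, 6.72, 7.75 and 8.73 in MET, 7.11, 7.34 and 7.80 in LEU and 5.35, 7.57 and 8.41 in MET+LEU. All groups overlapped SD for Pold1, and it passed in MET+LEU vs. SD only (-0.46, SE 0.11, adjusted p = 0.00178), with 0.24 (SE 0.11, adjusted p = 0.0857) in SD vs. 2% HS and -0.40 (SE 0.11, adjusted p = 0.0765) in LEU vs. SD. Prim1 (ENSMUSG00000025395, chr10:128015168-128030037, plus strand), the primase subunit that starts each new strand, was at 4.72, 5.44 and 6.64 CPM in 2% HS, 5.82, 6.47 and 9.49 in SD, 4.76, 5.75 and 6.72 in MET, 4.77, 6.25 and 7.07 in LEU and 5.62, 6.02 and 7.47 in MET+LEU. The rise of Prim1 in SD vs. 2% HS (0.30, SE 0.11, adjusted p = 0.0415) was lost in 6 of the 30 fits without 1 library, with the highest adjusted p, 0.209, without SD replicate 6, its highest library. It was also lost in 3 of 9 other fits (upper-quartile scaling, a looser count filter and only the groups compared in the model). Pola1, the catalytic subunit of polymerase alpha, passed in none of these comparisons, with 0.16 (SE 0.08, adjusted p = 0.138) in SD vs. 2% HS and -0.02 (SE 0.08, adjusted p = 0.922) in MET+LEU vs. SD.

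Pcna (ENSMUSG00000027342, chr2:132249162-132253314, minus strand), the clamp that holds polymerases on DNA, was at 32.1, 34.4 and 35.6 CPM in 2% HS and 36.7, 38.7 and 40.1 CPM in SD. All SD libraries lay above all libraries of 2% HS, although the change was small, 0.19 (SE 0.05, adjusted p = 0.00447), or 13.8% higher. Pcna was at 32.4, 38.3 and 39 CPM in MET, 33.2, 36.7 and 39.6 in LEU and 34.3, 35.7 and 40.8 in MET+LEU, which overlapped both SD and 2% HS, and MET+LEU vs. SD was -0.08 (SE 0.05, adjusted p = 0.272). The clamp loader genes Rfc3, Rfc4 and Rfc5 and Rpa2, a subunit of the protein that coats single-stranded DNA, passed in none of the comparisons with SD, with log2 fold changes of -0.14 to 0.16 in SD vs. 2% HS and -0.23 to 0.15 in MET+LEU vs. SD. Fen1 and Lig1, which trim and join Okazaki fragments on the lagging strand, did not pass either, and most exonic bases of Fen1 overlap genes on the opposite strand. Fen1 gave 0.26 (SE 0.10, adjusted p = 0.0534) and Lig1 0.19 (SE 0.11, adjusted p = 0.206) in SD vs. 2% HS, and -0.11 and -0.23 in MET+LEU vs. SD.

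The 5 genes of nucleotide supply did not move as 1 group in SD: Dut and Tk1 rose, while Rrm1 and Rrm2 were below 0 without passing. Rrm2 (ENSMUSG00000020649, chr12:24708241-24714146, plus strand), the regulatory subunit of ribonucleotide reductase, was at 102, 106 and 109.6 CPM in 2% HS, 88.7, 100.0 and 109 in SD and 85.2, 92.1 and 97.1 in MET. It was lower still in LEU, at 81.2, 86.9 and 89.7 CPM, and in MET+LEU, at 79.5, 81.7 and 91.8 CPM, where all libraries lay below those of 2% HS and most below those of SD. Rrm2 gave -0.21 (SE 0.04, adjusted p = 0.00477) in LEU vs. SD, -0.26 (SE 0.04, adjusted p = 1.38e-05) in MET+LEU vs. SD and -0.35 (SE 0.04, adjusted p = 1.95e-09) in MET+LEU vs. 2% HS, and it was -0.09 (SE 0.04, adjusted p = 0.119) in SD vs. 2% HS. The call in LEU vs. SD passed in every fit that left out 1 library, unlike those of Cdc6 and Mcm3. Rrm1, the large subunit, averaged 96.1 ± 3.49 CPM over the SD libraries and 86.5 ± 3.01 CPM over those of LEU (± standard deviation, n = 6), with no overlap between the libraries (89.9, 97.4 and 98.8 against 81.6, 87.5 and 89.2 CPM) and a log2 fold change just short of the threshold (-0.15, SE 0.04, adjusted p = 0.0589). Rrm1 in MET+LEU did not differ detectably from SD (-0.04, SE 0.04, adjusted p = 0.536) and was lower than in 2% HS (-0.11, SE 0.04, adjusted p = 0.016).

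Tk1 (ENSMUSG00000025574, chr11:117815526-117826092, minus strand), the thymidine kinase of the cytosol that salvages thymidine in dividing cells, was at 5.11, 6.38 and 6.93 CPM in 2% HS, 6.31, 7.66 and 8.67 in SD, 6.37, 7.20 and 8.07 in MET and 5.27, 6.96 and 7.54 in LEU. In MET+LEU, Tk1 was at 3.52, 5.13 and 6.15 CPM, below all libraries of SD and of MET. Tk1 fell in MET+LEU vs. SD by 34.4%, or -0.61 (SE 0.12, adjusted p = 0.000215), and was lower than in 2% HS (-0.30, SE 0.12, adjusted p = 0.043), in LEU (-0.40, SE 0.12, adjusted p = 0.0332) and in MET (-0.52, SE 0.12, adjusted p = 0.00441). Its rise in SD vs. 2% HS (0.31, SE 0.11, adjusted p = 0.0372) was lost in 5 of the 30 fits without 1 library (adjusted p = 0.101 without SD replicate 3). Dut (ENSMUSG00000027203, chr2:125247190-125258608, plus strand), which removes dUTP so that uracil is kept out of DNA, was at 4.63, 5.93 and 7.31 CPM in 2% HS, 7.17, 8.35 and 9.24 in SD, 6.84, 8.43 and 8.89 in MET, 7.25, 8.04 and 8.42 in LEU and 6.65, 7.40 and 7.97 in MET+LEU. The ranges of the 4 serum-free groups overlapped, and Dut was higher in SD vs. 2% HS (0.48, SE 0.10, adjusted p = 0.000129) and in MET+LEU vs. 2% HS (0.31, SE 0.10, adjusted p = 0.011), with -0.18 (SE 0.10, adjusted p = 0.207) in MET+LEU vs. SD. Tyms, which makes thymidylate, passed in none of these comparisons (0.09 in SD vs. 2% HS, -0.02 in MET+LEU vs. SD, -0.05 in LEU vs. SD).

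Of the 4 genes of chromatin assembly and histone supply, 3 rose in SD vs. 2% HS and fell in MET+LEU vs. SD. Over all genes, 13.9% rose in the first and 7.8% fell in the second of these comparisons, which share the SD libraries. Uhrf1 (ENSMUSG00000001228, chr17:56303321-56323486, plus strand), which brings the maintenance DNA methyltransferase to newly copied DNA, was at 10.2, 10.9 and 14.5 CPM in 2% HS and 12.4, 16.2 and 17.9 CPM in SD. Uhrf1 was at 11, 13.2 and 17.4 CPM in MET, 10.8, 12.5 and 14.3 in LEU and 9.54, 10.6 and 11.6 in MET+LEU, and all MET+LEU libraries lay below all SD libraries. It gave 0.44 (SE 0.10, adjusted p = 0.000463) in SD vs. 2% HS and -0.57 (SE 0.10, adjusted p = 5.12e-05) in MET+LEU vs. SD. Chaf1a (ENSMUSG00000002835, chr17:56040439-56072289, plus strand) and Chaf1b (ENSMUSG00000022945, chr16:93883901-93906115, plus strand) encode subunits of the factor that places histones on new DNA. Chaf1a was at 9.46, 10.9 and 13.9 CPM in 2% HS, 11.5, 14.6 and 17.3 in SD, 11.5, 13 and 14.7 in MET, 10.6, 12.1 and 13.9 in LEU and 8.93, 11.1 and 11.9 in MET+LEU, with 0.35 (SE 0.09, adjusted p = 0.00302) in SD vs. 2% HS and -0.38 (SE 0.09, adjusted p = 0.0027) in MET+LEU vs. SD. Of the 8854 exonic bases of Chaf1a, 4648 overlap Ubxn6 on the opposite strand, and whether the counting used strand is not given in the sources used here. Chaf1b was at 2.08, 2.71 and 3.52 CPM in 2% HS, 2.62, 4.05 and 5.28 in SD, 2.26, 3.82 and 4.02 in MET, 1.98, 2.66 and 3.30 in LEU and 2.24, 2.71 and 3.35 in MET+LEU, where the groups overlapped. Both of its changes, 0.48 (SE 0.17, adjusted p = 0.0245) in SD vs. 2% HS and -0.53 (SE 0.17, adjusted p = 0.0221) in MET+LEU vs. SD, were lost in some of the 30 fits without 1 library (3 and 2 fits), with the highest adjusted p, 0.0947 and 0.0723, without SD replicate 6. Slbp, which binds histone mRNA, did not pass, at -0.05 (SE 0.10, adjusted p = 0.729) in the first comparison and -0.08 (SE 0.10, adjusted p = 0.613) in the second.

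Among genes that guard and mend the fork, Brca1, Clspn and Exo1 changed and Tipin and Brca2 did not. Brca1 (ENSMUSG00000017146, chr11:101488764-101551955, minus strand) acts in repair by homologous recombination. Brca1 was at 4.68, 5.71 and 6.93 CPM in 2% HS, 6.12, 7.95 and 9.35 in SD, 6.78, 7.58 and 8.72 in MET, 3.89, 6.57 and 8.19 in LEU and 4.13, 5.70 and 6.08 in MET+LEU, and all MET+LEU libraries lay below all those of SD and of MET. Brca1 gave 0.46 (SE 0.12, adjusted p = 0.00392) in SD vs. 2% HS, -0.53 (SE 0.13, adjusted p = 0.00214) in MET+LEU vs. SD and -0.50 (SE 0.13, adjusted p = 0.00823) in MET+LEU vs. MET. Brca2, its partner in the same repair, gave -0.03 (SE 0.07, adjusted p = 0.822) in SD vs. 2% HS and -0.04 (SE 0.07, adjusted p = 0.738) in MET+LEU vs. SD. Clspn (ENSMUSG00000042489, chr4:126556935-126593903, plus strand), which carries the signal of a stalled fork to the checkpoint kinase, was at 3.99, 4.93 and 5.88 CPM in 2% HS and 6.71, 7.39 and 7.93 CPM in SD, with no overlap (0.59, SE 0.13, adjusted p = 0.000595). MET (5.44, 6.46 and 8.32 CPM), LEU (4.77, 6.33 and 6.77 CPM) and MET+LEU (3.56, 5.63 and 8.59 CPM) overlapped SD, and the MET+LEU libraries were the most spread. Clspn in MET+LEU vs. SD passed narrowly (-0.36, SE 0.13, adjusted p = 0.0478) and did not pass in 11 of the 30 fits without 1 library (adjusted p = 0.157 without MET+LEU replicate 2). Exo1 (ENSMUSG00000039748, chr1:175880581-175913489, plus strand), an exonuclease of mismatch repair and end resection, was at 1.39, 1.71 and 3.18 CPM in 2% HS, 2.19, 2.57 and 4.07 in SD, 1.69, 2.12 and 3.07 in MET, 0.911, 1.86 and 2.35 in LEU and 1.54, 1.81 and 2.36 in MET+LEU, on 14 to 57 counts in a library. Its ranges overlapped, and both 0.55 (SE 0.20, adjusted p = 0.0344) in SD vs. 2% HS and -0.60 (SE 0.20, adjusted p = 0.0301) in MET+LEU vs. SD were lost in some of the 30 fits without 1 library (6 and 4 fits), with the highest adjusted p, 0.135 and 0.101, without SD replicate 6. Tipin, which protects the fork with Timeless, gave 0.18 (SE 0.10, adjusted p = 0.169) in the first and -0.06 (SE 0.10, adjusted p = 0.699) in the second.

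The E2F transcription factors themselves moved little. E2f2 (ENSMUSG00000018983, chr4:136172394-136196057, plus strand) was at 86.4, 98 and 106 CPM in 2% HS, 90.2, 103 and 124 in SD, 95.1, 108 and 115 in MET, 93.6, 105 and 114 in LEU and 74.8, 93.8 and 102 in MET+LEU, with broad overlap. It passed in MET+LEU vs. SD only (-0.20, SE 0.07, adjusted p = 0.0415), and did not pass there by limma-voom, with a looser count filter, with only the groups compared in the model or with an offset for GC content (highest adjusted p = 0.26 among these), nor in 6 of the 30 fits without 1 library. E2f1 was between 10.2 and 13.9 CPM in all 30 libraries, with 0.13 (SE 0.08, adjusted p = 0.202) in SD vs. 2% HS, -0.09 (SE 0.08, adjusted p = 0.763) in LEU vs. SD and 0.01 (SE 0.08, adjusted p = 0.93) in MET+LEU vs. SD. Over the 18 members that passed in none of the 4 comparisons, the log2 fold change ran from -0.14 (Rfc4) to 0.29 (Gins1) in SD vs. 2% HS, from -0.10 (Brca2) to 0.19 (Gins3) in MET vs. SD, from -0.27 (Rfc5) to 0.37 (Orc1) in LEU vs. SD and from -0.32 (Orc1) to 0.25 (Gins1) in MET+LEU vs. SD.

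Against 2% HS, MET+LEU left most of the 43 genes at levels that were not told apart from the controls. In MET+LEU vs. 2% HS, 4 genes were higher and 7 lower by edgeR, against 22.1% and 20.3% of all genes (42.3% either way), so that the share of the 43 genes was below that of all genes, and their median log2 fold change was -0.04. The 7 lower genes were Cdt1, Mcm5, Pole, Tk1, Rrm2, Orc6 and Rrm1, and of these only Cdt1, Pole and Rrm2 had all MET+LEU libraries below all libraries of 2% HS (9.51% of all genes), while 0 of the 43 had them all above (11.5%). The 4 higher genes were Dut and 3 GINS subunits, Gins1 (0.54, SE 0.20, adjusted p = 0.0227), Gins3 (0.34, SE 0.11, adjusted p = 0.0101) and Gins4 (0.20, SE 0.07, adjusted p = 0.0141). Gins1 was at 0.823, 1.38 and 1.52 CPM in 2% HS and 1.32, 1.98 and 2.35 CPM in MET+LEU, Gins3 at 6.16, 7.41 and 7.95 and 7.84, 8.66 and 10.9 CPM, and Gins4 at 13.2, 14.1 and 16.1 and 15.5, 16.5 and 18.4 CPM. Their libraries overlapped between the groups, and Gins2, the remaining subunit, was not higher (0.00, SE 0.23, adjusted p = 0.991).

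The combination was also set against each compound alone. In MET+LEU vs. MET, 9 genes were lower and 0 higher (3.15% of all genes lower, 5.54% higher, 8.69% either way), namely Cdt1, Mcm2, Mcm3, Mcm5, Pole, Rrm2, Tk1, Uhrf1 and Brca1. All MET+LEU libraries lay below all MET libraries for Cdt1, Pole, Tk1 and Brca1, where 1.28% of all genes did so, and above for 0 (2.48%). In MET+LEU vs. LEU, 3 genes were lower and 0 higher (1.67% of all genes lower, 4.61% higher, 6.28% either way), namely Cdt1, Mcm5 and Tk1. Cdt1 was the only member with all MET+LEU libraries below all LEU libraries (0.861% of all genes), and 0 had them all above (2.73%). The interaction of MET and LEU, which asks whether the combination departs from the sum of both single changes on the log scale, was past the threshold for 0 of the 43 genes in edgeR, DESeq2 and limma-voom (0.0503% of all genes by edgeR, 0.0377% above and 0.0126% below 0), with 1 gene above and 2 below 0 at an unadjusted p under 0.05. At that unadjusted threshold, 1389 of all 15907 genes passed in either direction. A departure of the combination from the sum of its parts was thus not detected for these genes with 6 libraries per group.

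Each library was also summarised by the median over the 43 genes of the log2 ratio to the mean of 2% HS, which gives every gene equal weight. This level was -0.05, 0.00 and 0.05 in 2% HS, 0.11, 0.20 and 0.29 in SD, 0.06, 0.14 and 0.27 in MET, -0.05, 0.03 and 0.12 in LEU and -0.07, -0.02 and 0.05 in MET+LEU. By this level all SD and MET libraries lay above all libraries of 2% HS and of MET+LEU, LEU overlapped the groups on either side, and MET+LEU overlapped 2% HS. The summed level of the 43 genes ran over 725.9 to 772 CPM in 2% HS and 757 to 853 in SD. It was 749 to 812 CPM in MET, 701 to 761 in LEU and 693 to 724.7 in MET+LEU. By this sum, to which highly expressed genes add most, SD and MET overlapped 2% HS, and every MET+LEU library lay below every library of 2% HS. By the median log2 ratio, genes that mark dividing cells were at other levels. The same level over 10 markers of dividing cells (Mki67, Top2a, Ccnb1, Cdk1, Aurka, Aurkb, Bub1, Plk1, Cenpf and Birc5) was -0.10, -0.01 and 0.14 in 2% HS, -0.21, 0.08 and 0.32 in SD, -0.17, -0.08 and 0.15 in MET, -0.41, -0.34 and -0.19 in LEU and -0.82, -0.53 and -0.41 in MET+LEU. For these, 2% HS, SD and MET overlapped, and all MET+LEU libraries lay below every library of those 3 groups, while LEU met the lowest library of SD. The -0.82 was that of MET+LEU replicate 6, and the next lowest of its group was -0.61. In SD vs. 2% HS, 2 of the 10 markers were higher (13.9% of all genes), and in LEU vs. SD 3 were lower (0.321%). In MET+LEU vs. SD and vs. 2% HS, 10 and 9 of the 10 were lower, with medians of -0.62 and -0.53 (7.8% and 20.3% of all genes were lower). Aurkb gave 0.39 (SE 0.13, adjusted p = 0.0148) in SD vs. 2% HS and -0.945 (SE 0.13, adjusted p = 1.77e-06) in MET+LEU vs. SD. Mki67 gave 0.05 (SE 0.11, adjusted p = 0.789) and -0.35 (SE 0.11, adjusted p = 0.0263) in these comparisons. Ccnb1, a cyclin of mitosis, was at 10.0 ± 0.701 CPM in 2% HS, 10.0 ± 0.857 in SD, 6.16 ± 0.430 in LEU and 5.36 ± 0.764 in MET+LEU (mean ± standard deviation, n = 6), with 0.00 (SE 0.10, adjusted p = 0.987) in SD vs. 2% HS and -0.89 (SE 0.11, adjusted p = 7.68e-08) in MET+LEU vs. SD. The summed level of the 10 markers was 198, 214 and 243 CPM in 2% HS, 191, 227 and 272 in SD, 185, 206 and 252 in MET, 158, 172 and 197 in LEU and 145, 161 and 180.1 in MET+LEU, and its part in the levels of the 43 genes was not tested.

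**Figure D4:**
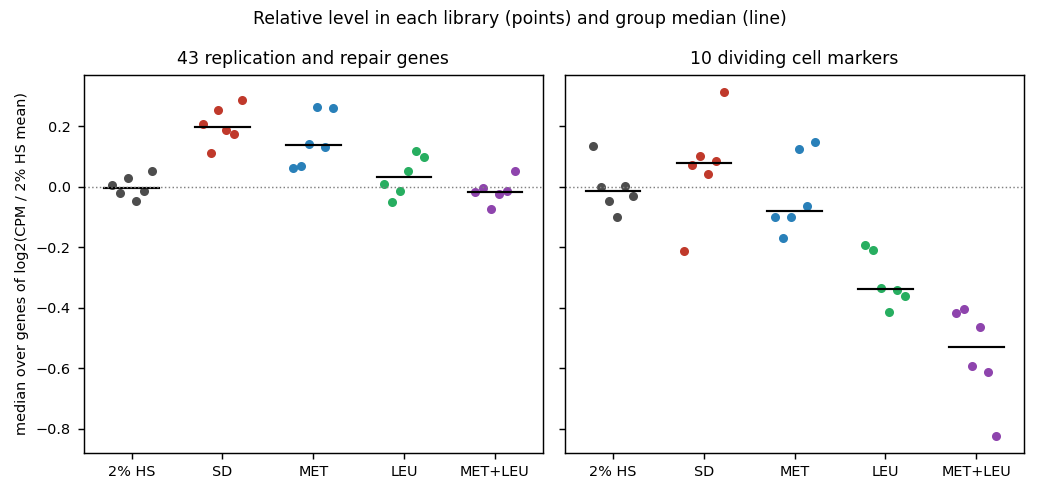
Median log2 ratio to the 2% HS mean over the 43 replication and repair genes (left) and over 10 markers of dividing cells (right) in each library (points) by group, with the group median (line). For the 43 genes the SD and MET libraries sit above 2% HS and MET+LEU sits with 2% HS, while for the dividing cell markers SD overlaps 2% HS and MET+LEU lies below every library of 2% HS, SD and MET.

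Other genes of the same processes were counted in the same way. In LEU vs. SD, 1588 of all 15907 genes had an unadjusted p under 0.05 in either direction. Of 50 other replication and S-phase genes, 8 were higher and 4 lower in SD vs. 2% HS (median 0.09, against 13.9% of all genes in each direction), 0 changed in LEU vs. SD by edgeR (0 higher and 7 lower at an unadjusted p under 0.05), and 3 were higher and 7 lower in MET+LEU vs. SD (median -0.06, against 10.6% and 7.8% of all genes). Asf1b, a histone chaperone, was at 10.4 ± 0.744 CPM in 2% HS, 13.1 ± 1.27 in SD and 9.25 ± 1.39 in MET+LEU, with 0.33 (SE 0.09, adjusted p = 0.00581) in SD vs. 2% HS and -0.50 (SE 0.10, adjusted p = 0.000162) in MET+LEU vs. SD. Moving the other way, Rrm2b, the reductase subunit of cells outside S phase, was at 37.6 ± 1.94, 31.1 ± 1.79 and 34.4 ± 2.60 CPM, and the log2 fold changes for the same comparisons were -0.28 (SE 0.05, adjusted p = 3.16e-05) and then 0.14 (SE 0.05, adjusted p = 0.0459). Mtbp fell in SD vs. 2% HS (-0.44, SE 0.07, adjusted p = 7.08e-06), and Top1, a topoisomerase, rose in MET+LEU vs. SD (0.25, SE 0.05, adjusted p = 0.00046). Of 48 other DNA repair genes, 5 were higher and 2 lower in SD vs. 2% HS (median 0.03, against the same 13.9%), 0 changed in LEU vs. SD by edgeR (2 higher and 5 lower at an unadjusted p under 0.05), and 6 were higher and 10 lower in MET+LEU vs. SD (median -0.02, against the same 10.6% and 7.8%). The checkpoint kinase Atr was lower in SD vs. 2% HS (-0.33, SE 0.05, adjusted p = 2.21e-07), Rad18 was higher there (0.38, SE 0.08, adjusted p = 0.000225) and lower in MET+LEU vs. SD (-0.23, SE 0.08, adjusted p = 0.0415), and Polb, a polymerase of base excision repair, was higher in MET+LEU vs. SD (0.31, SE 0.05, adjusted p = 2.15e-05).

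Of 30 genes that regulate E2F, such as cyclins, cyclin-dependent kinase inhibitors and retinoblastoma proteins, 5 were higher and 4 lower in SD vs. 2% HS (13.9% of all genes each way), and 3 were higher and 6 lower in MET+LEU vs. SD (10.6% and 7.8%). Ccnd1, the cyclin that begins to disable the retinoblastoma protein, rose from 8.84 ± 0.886 CPM in 2% HS to 20.1 ± 3.16 CPM in SD (1.19, SE 0.09, adjusted p = 2.03e-14) and was at 19.4 ± 1.78 CPM in MET+LEU (-0.05, SE 0.09, adjusted p = 0.735, vs. SD). Rb1, which encodes the retinoblastoma protein, fell from 152 ± 6.26 to 117 ± 8.98 CPM in SD (-0.38, SE 0.04, adjusted p = 4.97e-10) and was at 129.8 ± 6.78 CPM in MET+LEU (0.15, SE 0.04, adjusted p = 0.0102, vs. SD). Cdkn1a, an inhibitor of cyclin-dependent kinases, was at 1766 ± 73.9 CPM in 2% HS, 2394 ± 179 in SD and 2123 ± 129 in MET+LEU, with 0.44 (SE 0.04, adjusted p = 5.13e-12) in SD vs. 2% HS and -0.17 (SE 0.04, adjusted p = 0.00236) in MET+LEU vs. SD. Ccna2, the cyclin of S phase, was at 23.2 ± 1.67 CPM in 2% HS, 25 ± 1.80 in SD, 17.1 ± 1.88 in LEU and 15.7 ± 1.81 in MET+LEU. It was the 1 gene of the 30 that passed in LEU vs. SD (-0.54, SE 0.08, adjusted p = 7.93e-05), and it gave 0.11 (SE 0.07, adjusted p = 0.295) in SD vs. 2% HS and -0.68 (SE 0.08, adjusted p = 3.69e-08) in MET+LEU vs. SD.

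Markers of muscle cells and of other cell types were read beside these values. All 9 myotube markers were expressed, led by Ttn (30970.0 ± 1212 CPM in 2% HS) and Acta1 (3522 ± 164 CPM), and 3 of the 9 (Ckm, Myh1 and Ttn) were lower in SD vs. 2% HS (13.9% of all genes), while 4 were higher in MET+LEU vs. SD (10.6%). Their summed level ran over 39411 to 42437 CPM in 2% HS, 32022 to 34566 in SD, 28628 to 32562 in MET, 35701 to 37598 in LEU and 31294 to 40857 in MET+LEU. The 40857 CPM was that of MET+LEU replicate 6, the library rich in ribosomal RNA, and the next highest of its group was at 35517 CPM. Of 7 markers of myoblasts or reserve cells, the undifferentiated cells of such a culture, 1 was higher and 3 lower in SD vs. 2% HS (13.9% each way), and 0 changed in MET+LEU vs. SD. At an unadjusted p under 0.05, 1 was higher and 0 lower there, where 4961 of all 15907 genes passed either way. Pax7, their defining factor, was at 190.0 ± 5.67 CPM in 2% HS, 147 ± 8.43 in SD and 153 ± 11.1 in MET+LEU, and the summed level of the 7 markers ran over 822 to 894, 669 to 769.9 and 619 to 744 CPM. The 619 CPM was again MET+LEU replicate 6, with the next lowest of its group at 689.8 CPM. The summed level of the myoblast markers, to which highly expressed markers add most, was thus lower in SD than in 2% HS. The 3 lower markers in SD vs. 2% HS were Pax7 (-0.37), Heyl (-0.68) and Myod1 (-0.28). Cd34 went the other way, with 0.43 (SE 0.07, adjusted p = 1.04e-06) in SD vs. 2% HS. It was also higher in MET+LEU vs. 2% HS (0.59, SE 0.07, adjusted p = 3.18e-10). These markers thus did not move as 1 group, and their part in the rise of 19 of the 43 genes in SD was not tested. Of 5 fibroblast markers 3 passed the filter, Col1a1, Dcn and Pdgfra, and all 3 were higher in SD vs. 2% HS (13.9% of all genes). Their MET+LEU values went different ways: in MET+LEU vs. SD, Col1a1 was lower (-0.35, SE 0.05, adjusted p = 2.14e-06), Dcn was higher (0.48, SE 0.10, adjusted p = 0.00111) and Pdgfra did not pass (0.09, SE 0.07, adjusted p = 0.405). The summed level of the list, most of it Col1a1, was 542 to 637 CPM in 2% HS, 738 to 903 in SD and 623 to 706 in MET+LEU, while Tcf21 was at 0 in all 30 libraries and Thy1 reached at most 0.493 CPM. Of 4 macrophage markers, Adgre1 was at 0 in all 30 libraries and Ptprc at 0 in 27, while Cd68, which other cells also express, and Csf1r were at 0 in no library, with group means of 2.22 to 2.98 CPM for Cd68 and 0.292 to 0.496 CPM for Csf1r. The 4 adipocyte and the 4 endothelial markers stayed below the filter, with summed levels of at most 0.268 and 1.14 CPM.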

How the data were processed

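Total RNA of 30 C2C12 libraries (5 groups of 6, by their labels) was depleted of ribosomal RNA and made into stranded libraries. The authors deposited raw read counts per Ensembl gene, whole numbers without normalization. Their processing notes name cutadapt 1.16, STAR 2.7.6a, featureCounts 1.6.3, DESeq2 1.30.1 and GRCm38, while the annotation release and the strand setting of the counting are not given in the sources used here. Symbols, exon lengths and positions came from GENCODE M21, which matched 55227 of the 55487 genes, and the other 260 held 0.00434% of the counts. All count columns were used. Libraries held 12784960 to 19604103 counts, and a gene at 0 could still hold up to 3 counts in a library by counting error, the only error this limit includes.

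edgeR 4.0.16 under R 4.3.3 served for the main tests. Genes were kept by filterByExpr (minimum count 10, minimum total count 15), libraries were scaled by TMM, and 1 model with a mean per group held all 30 libraries (robust quasi-likelihood fit). Each contrast was given a quasi-likelihood F test, its p-values were adjusted by Benjamini-Hochberg across the 15907 genes tested, and the threshold was 0.05. Standard errors were obtained by dividing the log2 fold change by the square root of F. Genes past the threshold in SD vs. 2% HS or in MET, LEU or MET+LEU vs. SD are given in full and the other members by range and count. From other lists, up to 4 genes with the smallest adjusted p and defining markers are named, apart from 1 gene that is not reported here. The 43 genes and all lists were chosen with earlier results of these data known. Promoter windows came from RefSeq and were searched for exact letters on both strands.

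Alternatives were the Wald test of DESeq2 1.42.0, limma-voom (limma 3.58.1), scaling by upper quartiles or by the size factors of DESeq2, looser and stricter count filters, only the groups compared in the model, the replicate number as a block, an adjusted p under 0.01, and leaving out each library. An offset for GC content and the fit without MET+LEU replicate 6 as a named alternative were chosen after seeing the data.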

Additional observations from a re-analysis of the deposited data

Results flagged for a closer look

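In each group of 6 libraries, the gap of the highest or lowest library to its nearest neighbour was divided by the range of the group, for the 25 genes with full statistics and for the median level over the 43 genes and over the dividing cell markers. The ratio exceeded Dixon's 95% critical value for 6 values (0.625) in 7 of 135 groups tested, and chance flags about 1 in 20 groups. Cdc6 stood apart in 2% HS replicate 6 (ratio 0.632, 2.84 CPM against 2.02 CPM in the next library) and in LEU replicate 5 (ratio 0.749, 3.06 against 2.05 CPM). Prim1 stood apart in SD replicate 6 (ratio 0.664, 9.49 against 7.06 CPM). Exo1 stood apart in 2% HS replicate 6 (ratio 0.646, 3.18 against 2.02 CPM) and in MET replicate 6 (ratio 0.66, 3.07 against 2.16 CPM). Pole was low in MET+LEU replicate 4 (ratio 0.657, 9.29 against 10.5 CPM), and Rrm2 was high in MET+LEU replicate 2 (ratio 0.806, 91.8 against 81.9 CPM).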

How the results depend on the processing

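The counts of changed genes among the 43 were recomputed in 10 alternative fits and in 30 fits that each left out 1 library. The counts in MET+LEU vs. SD stayed within 1.5 times the reported 20 in all of them, and MET vs. SD and the interaction stayed at 0. In LEU vs. SD, where 3 genes were called, DESeq2's Wald test called 6, limma-voom 6, the fit with the replicate block 5 and the GC offset, chosen after seeing the data, 5, while the share of genes called went from 0.553% to 1.07%, 1.19%, 0.641% and 0.817%. The 1.07% of DESeq2 was a share of the 14382 genes to which it gave an adjusted p. An adjusted p under 0.01 left 12 genes in SD vs. 2% HS, 1 in LEU vs. SD, 3 in MET+LEU vs. 2% HS, 1 in MET+LEU vs. LEU and 5 in MET+LEU vs. MET, where 19%, 0.157%, 31.5%, 1.63% and 3.02% of all genes were called. Leaving out 1 library gave 15 (without 2% HS replicate 2) to 22 genes in SD vs. 2% HS, 1 to 7 in LEU vs. SD, 17 (without SD replicate 3) to 20 in MET+LEU vs. SD, 9 to 12 in MET+LEU vs. 2% HS, 2 to 4 in MET+LEU vs. LEU and 6 to 12 in MET+LEU vs. MET. Counts of 22 and 7 came without MET+LEU replicate 6, where 30.3% and 1.67% of all genes were called. The count of 15 came with 25.3% of all genes called. In MET+LEU vs. 2% HS, 9 were called without 2% HS replicate 3 (39.7% of all genes) and 12 without 2% HS replicate 1 (40%). In the main fit the share of all genes was 18.4% in MET+LEU vs. SD, 6.28% in MET+LEU vs. LEU and 8.69% in MET+LEU vs. MET. The median log2 fold changes of the 43 genes moved by less than the spread between libraries in every fit compared, which did not include DESeq2's Wald test. Single gene calls were not followed at the adjusted p under 0.01, which by the counts above removes more of them. Of 43 gene calls reported, 8 were lost in another alternative that kept all libraries, 15 in a fit without 1 library, and 0 reversed. The 8 were, in SD vs. 2% HS, Prim1 (3 of 9 alternatives), Pole (2) and Tk1 (2), and in MET+LEU vs. SD, E2f2 (4), Exo1 (2), Gins2, Chaf1b and Clspn (1 each). The causes were not tested.

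The replicate numbers were not taken as pairs. Libraries of the same number in different groups had correlations of -0.0913 to 0.142 in their deviations from the group means (mean 0.0157, 60 pairs, 2 of them over 0.1), and those of different numbers a mean of -0.00314. With the replicate block, 21 genes were called in SD vs. 2% HS (28.3% of all genes), 20 in MET+LEU vs. SD (19.6%) and 11 in MET+LEU vs. 2% HS (42.9%). The same fit called 4 in MET+LEU vs. LEU (6.93% of all genes) and 11 in MET+LEU vs. MET (9.95%). Depth limits Orc1, Gins1, Gins2, Cdc6, Exo1, Mcm10 and Chaf1b most, which had under 75 counts in every library.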
